A study of Mus musculus with 6 samples.

Results

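The nuclear genes for subunits of the mitochondrial respiratory chain and of ATP synthase were followed in RAW264.7 cells, a mouse macrophage line, that received lipopolysaccharide (LPS) with or without an antibody against the protease MMP14. Members were all rows of the count table whose symbol begins with Nduf followed by a, b, c, s or v and a digit, with Uqcr, with Cox and a digit from 4 to 8, or with Atp5, together with Cyc1, and symbols marked as pseudogenes were left out. The rule gave 86 of the 40773 genes in the table, of which 42 are grouped here as complex I, 9 as complex III, 18 as complex IV and 17 as complex V. After a filter on low counts 77 of the 86 were tested, among 11498 genes tested in all.

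Both groups were kept for 24 h in LPS at 100 ng/mL, a part of the outer membrane of bacteria that macrophages sense through Toll-like receptor 4, and the second group also received 3A2, an MMP14-neutralizing antibody, at 50 µg/mL. Each group held 3 replicates that the labels call biological, and the genotype of all cells is labelled plain. Neither unstimulated cells nor a control antibody were analysed here, so the groups differ in the presence of any antibody as well as in MMP14 neutralization. The comparison asks which transcripts differ when 3A2 is added to LPS-treated macrophages.

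The respiratory chain passes electrons from NADH and succinate to oxygen and uses the energy to pump protons across the inner mitochondrial membrane. Complex I oxidizes NADH, complex III passes electrons from coenzyme Q to cytochrome c, complex IV hands them to oxygen, and complex V, the ATP synthase, makes ATP as protons flow back. Most subunits are encoded in the nucleus and imported, and a few are encoded by the mitochondrial genome, so each of these complexes draws on both genomes. Macrophages activated by LPS are known for relying more on glycolysis and less on respiration.

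Promoters of these genes are known for sites of NRF1 and of ETS factors such as GABP, and 4 of them are printed here, 1 per complex, as examples of windows that hold such letters. Each sequence is the 250 bases before the gene start, 5′ to 3′ on the strand of the gene, from RefSeq on the mouse build GRCm38.p6, and capitals mark matches to GCGCA, any base, GCGC (NRF1) or CCGGAAG (ETS) on either strand. Ndufa8 lies on the minus strand with its window at chr2:36049339-36049588, Uqcr11 on the minus strand at chr10:80406822-80407071, Cox6a1 on the minus strand at chr5:115348959-115349208 and Atp5h on the minus strand at chr11:115419920-115420169.
Ndufa8: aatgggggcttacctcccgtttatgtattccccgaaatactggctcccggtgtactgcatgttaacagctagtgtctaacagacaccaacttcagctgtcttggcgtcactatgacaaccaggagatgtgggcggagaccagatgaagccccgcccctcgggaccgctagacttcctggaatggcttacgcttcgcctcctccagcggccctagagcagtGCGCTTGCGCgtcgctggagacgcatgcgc
Uqcr11: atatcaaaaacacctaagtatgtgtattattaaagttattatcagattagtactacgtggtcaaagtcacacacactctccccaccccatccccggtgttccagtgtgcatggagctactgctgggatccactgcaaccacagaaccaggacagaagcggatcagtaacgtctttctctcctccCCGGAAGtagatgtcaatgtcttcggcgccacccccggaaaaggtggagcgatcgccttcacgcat
Cox6a1: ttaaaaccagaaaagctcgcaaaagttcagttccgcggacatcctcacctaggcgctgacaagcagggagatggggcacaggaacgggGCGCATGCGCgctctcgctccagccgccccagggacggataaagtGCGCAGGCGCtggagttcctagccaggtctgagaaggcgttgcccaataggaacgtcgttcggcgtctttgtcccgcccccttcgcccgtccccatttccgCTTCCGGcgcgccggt
Atp5h: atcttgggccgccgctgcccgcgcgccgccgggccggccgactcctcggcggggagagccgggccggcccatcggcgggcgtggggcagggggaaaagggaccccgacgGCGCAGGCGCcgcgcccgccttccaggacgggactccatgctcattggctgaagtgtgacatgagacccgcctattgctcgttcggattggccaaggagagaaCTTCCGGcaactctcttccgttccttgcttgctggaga
Cox6a1 and Atp5h hold both kinds of match, Ndufa8 an NRF1 match and Uqcr11 an ETS match.

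RefSeq windows were found for 64 of the 77 tested members, 69 windows in all, since a gene can have several starts. The NRF1 letters occurred in 12 of these 69 windows, or 17.4%, against 8.48% of 11516 windows of all tested genes and 3.74% of all 32851 windows. They came from Atp5c1, Atp5g2, Atp5h, Atp5k, Cox6a1, Ndufa11, Ndufa5, Ndufa8, Ndufb4, Ndufs5 and Ndufs6. The windows of Ndufa5 overlap and hold the same site, at -190 and -26 from their starts, so by gene the letters were in 11 of 64 members. The ETS letters occurred in 11 windows, or 15.9%, against 14.5% for tested genes and 6.91% for all windows. A GC box (GGGCGG on either strand) was in 31.9% of the members' windows, against 57% for tested genes and 32.7% for all windows. CCAAT was in 39.1% of the members' windows and 36.1% of those of tested genes, and TATAAA in 10.1% and 6.39%. The cAMP response letters TGACGTCA stood in 4 windows, those of Ndufa10, Ndufa11, Ndufb2 and Uqcrfs1, or 5.8% against 2.67% for tested genes. The NF-κB letters GGGA, any base, TTTCC stood in 0 of the 69 windows and in 0.408% of those of tested genes. A match describes letters in a window and no binding was measured. The median number of CpG pairs was 14 in the members' windows and 16 in those of tested genes. Tested members with the NRF1 letters numbered 11, and 5 of them lay above 0 on the log2 scale of the fold change with 3A2 over LPS (median of -0.00). Of the 53 without these letters 31 lay above 0 (median of 0.04). For the ETS letters, 6 of 11 members with them lay above 0 (median of 0.01) and 30 of 53 without them (median of 0.03). Neither difference was tested.

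Depth ran from 6431096 to 7432553 counts per library for LPS and from 6060732 to 6537419 for LPS plus 3A2. Macrophage markers were all present, from Adgre1 at 13.4 CPM (the usual depth-scaled read count, here on library totals scaled by the TMM method) upward, and the 9 markers summed to 7184 to 7254 CPM with LPS and 6252 to 6693 CPM with 3A2. The part of this lower sum in the results on subunit genes was not tested. Epithelial markers were at 0 in all libraries, 5 of 6 lymphocyte markers were at 0, and the sum of 6 muscle markers was 0.461 CPM or less. Neutrophil markers, 2 of 5 at 0, summed to between 5.82 and 7.46 CPM with LPS and between 5.68 and 6.5 CPM with 3A2, and 6 fibroblast markers, 2 at 0, to 0.439 CPM or less. Mitochondrially encoded mRNAs and cytosolic ribosomal protein mRNAs stood apart in LPS plus 3A2 replicate 3, with mean log2 deviations of 0.45 and -0.13 from the mean of all libraries.

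Subunit mRNAs made up a small, even share of each library. The 77 tested members together took 0.647%, 0.653% and 0.66% of the counts with LPS and 0.652%, 0.678% and 0.643% with 3A2. Levels between genes were compared per length, as CPM per kb of transcript (the median length of the protein-coding transcripts in the GENCODE M21 annotation), which could be had for 74 of the 77. The median was 75.7 CPM per kb for the members, against 11.9 CPM per kb over 10502 tested genes with a length. By complex the median level was highest in complex V, at 139 CPM per kb, followed by complex IV at 128, complex III at 84.4 and complex I at 50.1. Interquartile ranges ran from 108 to 176 CPM per kb in complex V and from 98.3 to 220 in complex IV, so these neighbours in the order overlap widely. In complex I they ran from 35.6 to 67.2, below those of complexes IV and V.

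**Figure D1:**
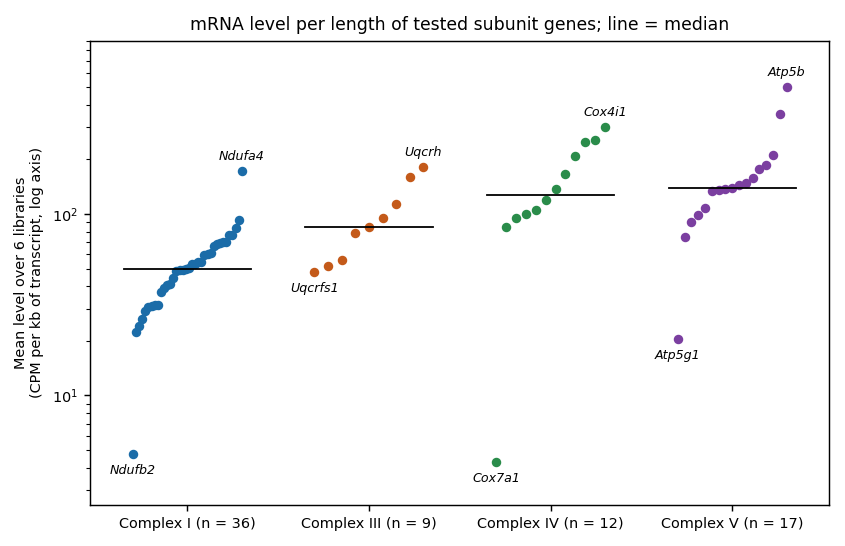
Mean level over 6 libraries of each tested subunit gene, in CPM per kb of transcript on a log axis, by complex, with each point a gene and each line a median. The medians of complexes IV and V lie above that of complex I, which was 50.1 CPM per kb, and Atp5b was highest of all at 502 CPM per kb.

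The highest levels per length belonged to subunits of the ATP synthase and of complex IV. Atp5b, the catalytic beta subunit of the F1 head, stood at 502 CPM per kb, and Atp5a1, its alpha partner that is present in the same number of copies, at 211. Between them came Atp5l, the small membrane subunit g, at 357 CPM per kb, and the complex IV genes Cox4i1 at 303, Cox6b1 at 254 and Cox5a at 250. In complex III the hinge protein gene Uqcrh was highest at 182 CPM per kb and Uqcrfs1, the Rieske iron-sulfur protein, lowest at 48.1. In the Nduf group Ndufa4 was highest at 173 CPM per kb. Ndufa4 carries a complex I symbol for historical reasons, and its protein is now known as a subunit of complex IV. Among the core complex I subunits Ndufs1, the largest iron-sulfur subunit, stood at 31.7 CPM per kb. The lowest levels were those of Cox7a1 at 4.32 CPM per kb, Ndufb2 at 4.75 and Atp5g1 at 20.5. For 8 tested members, among them Ndufb2, Atp5g1, Atp5md and Uqcrq, annotated transcripts differ in length by more than 2 times, so their levels per length are uncertain.

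Forms of complex IV subunits known mainly from muscle, testis or lung supplied little of the mRNA of their families. Shares here are of the counts per transcript length within a family. Cox4i2, the form of subunit 4 known from lung and hypoxia, was 0.353% ± 0.164 of the Cox4 mRNA with LPS and 0.175% ± 0.0474 with 3A2 (SD, n = 3), the rest being Cox4i1. Its counts were 4, 9 and 4 with LPS and 3, 2 and 2 with 3A2, below the filter, so its lower share in all 3 libraries with 3A2 rests on few reads. Cox7a1, the form known from heart and skeletal muscle, made up 2.2% ± 0.786 of Cox7a mRNA with LPS and 1.34% ± 0.595 with 3A2. The liver form Cox7a2 made up 42.3% ± 2.51 and 42.9% ± 1.85, and Cox7a2l, which takes part in joining complexes III and IV into supercomplexes, 55.5% ± 1.74 and 55.8% ± 1.59. Within the Cox7a family the shares of both groups overlap.

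Of the other muscle and testis forms, Cox6b2, Cox7b2, Cox8b and Cox8c had 0 counts in all 6 libraries, as did Ndufa11b. A count of 0 allows for up to 3 reads, equal to between 0.404 and 0.495 CPM depending on the library, and covers counting error only. Cox6a2, the heart and muscle form of subunit 6a, had counts of 0, 1 and 1 with LPS and 3, 0 and 1 with 3A2. Ndufa4l2, a hypoxia-induced relative of Ndufa4, had 0, 0 and 2 with LPS and 0, 1 and 0 with 3A2. Ndufs6b had 1 count in each LPS library and 0 in each library with 3A2, too few for a difference to be detectable at this depth. These 8 genes and Cox4i2 are the 9 members below the filter.

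The c subunit of the ATP synthase, which forms the rotating ring, is made from 3 genes whose mature proteins are identical. Atp5g2 supplied 49.2% ± 2.63 of the mRNA per length with LPS and 48.7% ± 2.65 with 3A2 (SD, n = 3), and Atp5g3 43.9% ± 2.47 and 44.8% ± 3.17. Atp5g1 supplied 6.95% ± 0.165 and 6.52% ± 0.549. All 3 shares and their order rest on uncertain lengths, which the SDs do not cover. Transcripts of Atp5g1 run from 596 to 4715 bases and those of Atp5g2 from 441 to 731, and a change in 1 share moves the others. In raw counts summed over the LPS libraries, Atp5g1 had 1143, Atp5g2 1771 and Atp5g3 1935. Neither group stood outside the other for any of the 3 shares. Ndufb4, Ndufb4b and Ndufb4c are near copies of each other, with 924, 347 and 540 counts over all libraries, and how their shared reads were assigned is not given in the sources used here.

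With 3A2, no nuclear subunit gene passed the test, and nearly all were bounded to small differences. At a Benjamini-Hochberg adjusted p under 0.05 over all genes, from the quasi-likelihood test of edgeR, 0 of 77 members were called, where 0% of all genes were called, and the smallest adjusted p among members was 0.719. DESeq2 and limma-voom called 0 members as well. At an unadjusted p under 0.05 there were 5 members, Atp5md, Cox5a, Atp5l, Cox7c and Cox7b, against 6.51% of all genes, so the share among members is near the background. All 5 were higher with 3A2, where 3.43% of all genes were, and 0 were lower, where 3.09% of all genes were. The groups did not overlap for 7 members, 5 higher and 2 lower, against 12.3% of all genes (5.84% higher and 6.46% lower), which is again near the background. On the log2 scale 43 members lay above 0 and 34 below, with a median of 0.02, beside 50.4% above 0 and a median of 0.00 over all genes tested. Without LPS plus 3A2 replicate 2 the members' median was -0.01 and 36 lay above 0, so the sign of the median rested on that library.

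For 76 of 77 members, all but Cox7a1, the 95% confidence interval stayed inside a change of 1.5-fold up or down, and for 32 (41.6%) inside 1.2-fold. Over all genes these shares were 79.6% and 26.2%. Members had a median of 57.5 CPM against 29 CPM over all genes, and the part of abundance in the width of their intervals was not tested. Standard errors on the log2 scale had a median of 0.0913 among members and 0.119 among all genes. In bulk RNA, fewer cells with a transcript and less transcript per cell cannot be told apart.

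**Figure D2:**
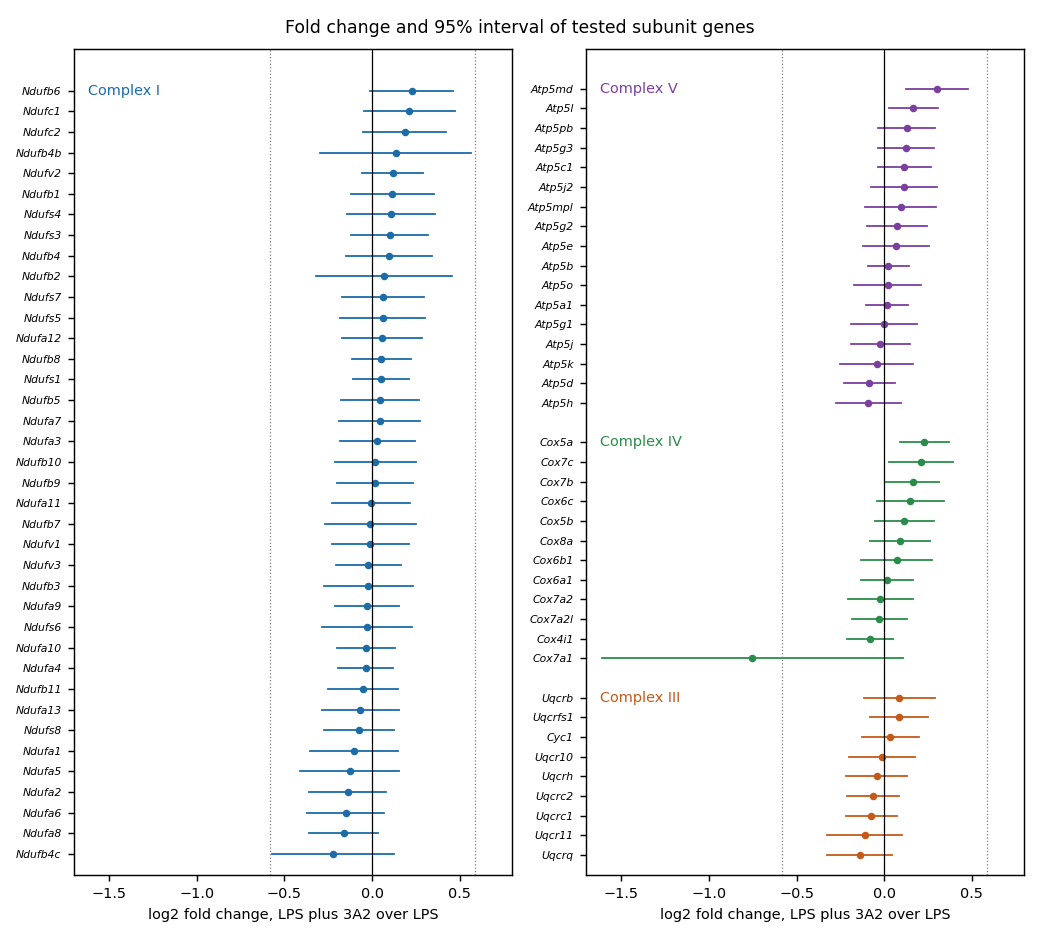
Log2 fold change of LPS plus 3A2 over LPS for 76 of the 77 tested subunit genes, with its 95% confidence interval as a bar, grouped by complex, dotted lines marking 1.5-fold in either direction. All intervals but that of Cox7a1 lie between the dotted lines, and those of Atp5md, Cox5a, Atp5l, Cox7c and Cox7b lie above 0.

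Complex I had 20 of 39 tested members above 0 and 19 below, at a median of 0.02 on the log2 scale, and fold changes from 0.856 (Ndufb4c) to 1.17 (Ndufb6). At an unadjusted p under 0.05 there were 0. The 7 core subunits, which carry the flavin and the iron-sulfur clusters, lay above 0 in 4 cases, the highest being Ndufv2 at 1.08-fold, and the interval of each lay within 1.5-fold. Without LPS plus 3A2 replicate 2 complex I had 17 above 0 and a median of -0.02, and without replicate 3 it had 24. Without replicate 2 of that group 4 of its members had an unadjusted p under 0.05 by edgeR, at a smallest adjusted p of 0.207. The share of all genes in that setting was not counted. With any other library left out there were 0 or 1.

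Ndufb6, an accessory subunit of the membrane arm, had the smallest p in complex I. It measured 26.9, 27.9 and 28 CPM with LPS and 32.1, 28.6 and 36.5 CPM with 3A2. The groups did not overlap, though LPS plus 3A2 replicate 2 lay just above the highest LPS library. The fold change was 1.17 (95% interval 0.994 to 1.38), with an adjusted p of 0.757 by edgeR. On the log2 scale it was 0.23, and 0.13 without LPS plus 3A2 replicate 3.

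Ndufa8, an accessory subunit that faces the intermembrane space, measured 55.7, 63.2 and 63.3 CPM with LPS and 55.9, 59 and 47.8 CPM with 3A2. LPS plus 3A2 replicate 3 was the lowest, and the groups overlapped. The fold change was 0.894 (0.78 to 1.02), or -0.16 on the log2 scale, and -0.08 without that library. Ndufc1, a small accessory subunit of the membrane arm, measured 24, 23.1 and 20.4 CPM with LPS and 24.8, 23.8 and 29.8 CPM with 3A2. Here LPS plus 3A2 replicate 3 was the highest library, the groups overlapped, and the fold change was 1.16 (0.968 to 1.39), or 0.21 on the log2 scale and 0.11 without that library.

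Ndufs1 measured 79.1, 83.6 and 82.1 CPM with LPS and 83.7, 81.6 and 88.5 CPM with 3A2, or 1.04-fold (0.929 to 1.16), and its groups overlapped. Ndufa6, an accessory subunit named here after its values were seen, had all libraries with 3A2 below those with LPS. It measured 31.7, 30.6 and 29.9 CPM with LPS and 27.9, 26.9 and 28.3 CPM with 3A2. The fold change was 0.901 (0.773 to 1.05), with an adjusted p of 0.816 by edgeR. Ndufv1, which binds NADH and was also chosen after its values were seen, measured 59.5, 60.4 and 59.3 CPM with LPS and 63.5, 67 and 47.2 CPM with 3A2. Its means were 59.7 ± 0.559 and 59.2 ± 10.6 CPM (SD, n = 3), so the libraries with 3A2 were spread to both sides of tightly grouped LPS libraries.

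With all libraries, complex III was the only complex with more members below 0 than above, 6 against 3, at a median of -0.04 on the log2 scale, and 0 of its 9 members reached an unadjusted p under 0.05. Whether it differed from the other complexes was not tested. Both catalytic subunits with a redox centre lay above 0, Cyc1 (cytochrome c1) at 1.02-fold and Uqcrfs1 at 1.06-fold. Both core proteins lay below, as did 4 of the 5 small subunits.

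Uqcrq, a small accessory subunit, measured 84.8, 81.5 and 88.1 CPM with LPS and 84.2, 80.8 and 65.7 CPM with 3A2. LPS plus 3A2 replicate 3 stood well below the other 5 libraries. The fold change was 0.908 (95% interval 0.799 to 1.03), or -0.14 on the log2 scale, and -0.04 without that library. Uqcr11, another small subunit, measured 33.3, 38.3 and 36.8 CPM with LPS and 33, 34.7 and 32.7 CPM with 3A2, or 0.926-fold (0.798 to 1.07), with overlapping groups. Uqcrfs1 measured 65.8, 63.6 and 61.5 CPM with LPS and 65.3, 68.2 and 68.8 CPM with 3A2, or 1.06-fold (0.945 to 1.19), and its groups overlapped in 1 library each.

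Uqcrc1 and Uqcrc2, the core proteins that face the matrix, were the most abundant complex III mRNAs in CPM. Uqcrc1 measured 137, 146 and 146 CPM with LPS and 139, 142 and 127 CPM with 3A2, or 0.951-fold (0.858 to 1.05). Uqcrc2 measured 104, 111 and 109 CPM with LPS and 105, 102 and 103 CPM with 3A2, or 0.957-fold (0.863 to 1.06). The log2 fold change of Uqcrc1 was -0.07, and -0.03 without LPS plus 3A2 replicate 3. For both core proteins, LPS replicate 1 was the lowest LPS library and lay within the range with 3A2.

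Complex IV had 8 of 12 tested members above 0 (median log2 fold change 0.08), where 50.4% of all genes were. Of these, 3, Cox5a, Cox7c and Cox7b, had an unadjusted p under 0.05 by edgeR, against 6.51% of all genes. Whether these shares differ from those of all genes was not tested. When LPS plus 3A2 replicate 2 was left out, 6 of 12 lay above 0 and the median was 0.02. Cox5a, which binds the matrix face of the complex, measured 151, 146 and 148 CPM with LPS and 168, 173 and 180 CPM with 3A2. Every library with 3A2 lay above every LPS library, with a clear gap between the groups. Cox5a averaged 148 ± 2.9 CPM in LPS and 174 ± 6.02 CPM in LPS plus 3A2 (SD, n = 3), a 1.17-fold difference (95% interval 1.06 to 1.29). The unadjusted p was 0.00244 and the adjusted p 0.719 by edgeR. Over the alternative settings its adjusted p ran from 0.12 to 0.999 and its log2 fold change from 0.20 to 0.25.

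Cox7c and Cox7b are small subunits that span the membrane once. Cox7c measured 56.3, 59 and 63.1 CPM with LPS and 71.1, 62.2 and 73.5 CPM with 3A2, or 1.16-fold (1.02 to 1.31), and LPS plus 3A2 replicate 2 lay within the LPS range. Cox7b measured 86.6, 91.1 and 91.8 CPM with LPS and 99.1, 98.5 and 104 CPM with 3A2, or 1.12-fold (1.01 to 1.24), with no overlap between groups. Their adjusted p was 0.734 and 0.748 by edgeR.

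Cox4i1, the subunit at which ATP regulates the complex and the most abundant complex IV mRNA, measured 241, 228 and 237 CPM with LPS and 220, 230 and 218 CPM with 3A2. The groups overlapped in 1 library each, and the fold change was 0.946 (0.864 to 1.04). Cox7a1 measured 2.63, 1.47 and 3.06 CPM with LPS and 0.972, 1.23 and 2 CPM with 3A2. It had the fewest counts of any tested member, 6 to 20 in a library, and its fold change of 0.593 had a wide interval of 0.327 to 1.08. The remaining complex IV members ran from 0.981-fold (Cox7a2l) to 1.11-fold (Cox6c).

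**Figure D3:**
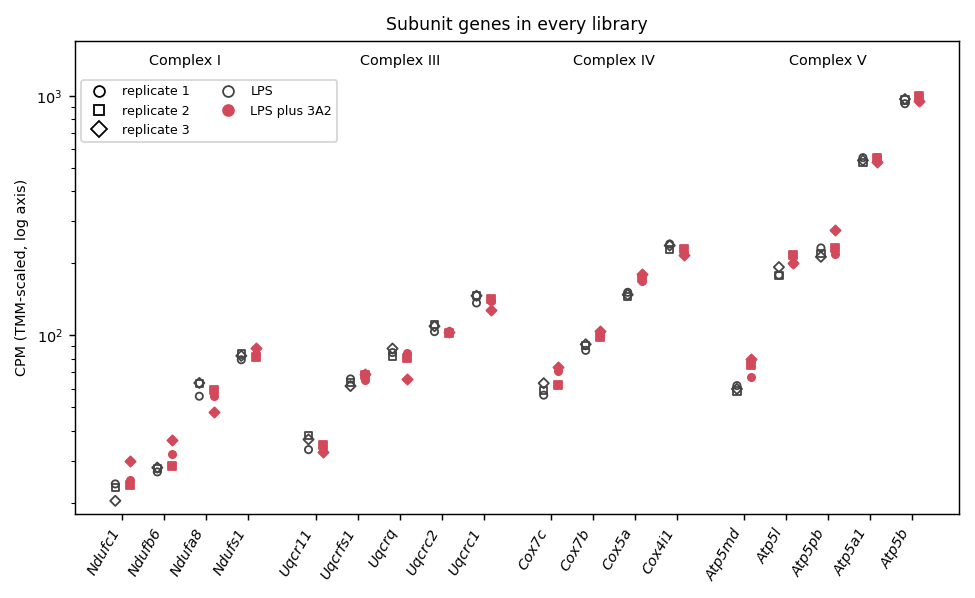
Level of the subunit genes picked by p and level within each complex in each of the 6 libraries, in TMM-scaled CPM on a log axis, open symbols for LPS, filled symbols for LPS plus 3A2 and symbol shape for the replicate number. Cox5a, Cox7b, Atp5md, Atp5l and Ndufb6 have all filled symbols above the open ones, and the groups overlap for the others shown.

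Complex V had 12 of 17 members above 0 (median log2 fold change 0.07), where 50.4% of all genes were, and its 17 intervals all lay within 1.5-fold. Without LPS plus 3A2 replicate 2 there were 10 above 0 with a median of 0.01. The 5 genes of the F1 head and central stalk ran from 0.943-fold (Atp5d) to 1.08-fold (Atp5c1), the 3 c subunit genes from 0.999-fold to 1.09-fold, and the 4 genes of the peripheral stalk from 0.939-fold (Atp5h) to 1.09-fold (Atp5pb). The 5 small membrane subunits ran from 0.97-fold (Atp5k) to 1.23-fold (Atp5md). They held both complex V members with an unadjusted p under 0.05 by edgeR, where 6.51% of all genes were under it.

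Atp5md, a small membrane subunit also known as DAPIT that helps ATP synthases pair into dimers, had the smallest p of all members. It measured 61.7, 58.6 and 59.8 CPM with LPS and 66.9, 75.4 and 79.3 CPM with 3A2. All libraries with 3A2 were above all with LPS, and they were spread more widely. Atp5md averaged 60 ± 1.56 CPM in LPS and 73.9 ± 6.36 CPM in LPS plus 3A2 (SD, n = 3), a 1.23-fold difference (95% interval 1.09 to 1.39). Its unadjusted p was 0.00198 and its adjusted p 0.719 by edgeR, and over the alternative settings the adjusted p ran from 0.142 to 0.999.

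Atp5l measured 179, 178 and 193 CPM with LPS and 200, 216 and 200 CPM with 3A2, or 1.12-fold (1.02 to 1.24), and the groups did not overlap. Atp5pb, the b subunit of the peripheral stalk, measured 232, 220 and 213 CPM with LPS and 218, 233 and 276 CPM with 3A2. LPS plus 3A2 replicate 3 stood far above the other 5 libraries, and the fold change was 1.09 (0.977 to 1.22). The log2 fold change of Atp5pb was 0.13 with all libraries and 0.02 without that one.

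Atp5b and Atp5a1 were the most abundant members and the most tightly bounded. Atp5b measured 928, 962 and 970 CPM with LPS and 949, 1001 and 956 CPM with 3A2, or 1.02-fold (0.937 to 1.1). Atp5a1 measured 552, 529 and 538 CPM with LPS and 553, 552 and 530 CPM with 3A2, or 1.01-fold (0.929 to 1.1). The groups overlapped for both.

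By library, the mean log2 deviation of all 77 members from the mean of 6 libraries was -0.01, -0.01 and -0.01 with LPS and 0.00, 0.04 and -0.02 with 3A2. The LPS libraries lay within a narrow band (SD 0.00287, n = 3), and those with 3A2 spread to both sides of it (SD 0.0327, n = 3). Each gene weighs alike in these means, Cox7a1 with 6 to 20 counts in a library included, and they were not taken without it. In summed CPM, where Cox7a1 weighs little, the members ran from 6476 to 6508 with LPS and from 6494 to 6814 with 3A2. LPS plus 3A2 replicate 2 was highest in complexes I, IV and V, and replicate 3 of that group was lowest in complexes I and III. In complex V all libraries with 3A2 lay above those with LPS, at 0.0155, 0.0677 and 0.00203 against -0.0137, -0.027 and -0.0446. In complex III they lay below, at -0.0065, 0.00385 and -0.0384 against 0.0168, 0.0194 and 0.00487. The groups overlapped for complexes I and IV, and none of this was tested. Mitochondrially encoded subunit mRNAs ordered the same libraries otherwise, with deviations of -0.04, -0.17 and -0.21 with LPS and 0.11, -0.14 and 0.45 with 3A2. In LPS plus 3A2 replicate 2, the mean over all 77 members was at its highest while the mitochondrial mRNAs were below their mean. In replicate 3 of that group the mean over members was at its lowest and that of mitochondrial mRNAs at its highest. Complexes IV and V did not share this, at 0.0139 and 0.00203 in replicate 3. The complex IV means depend in part on Cox7a1, which is among its 12 genes. The summed CPM of complex IV ran from 1194 to 1219.8 with LPS and from 1220.5 to 1307 with 3A2. The part of these differences between libraries in the fold changes of nuclear members was not tested.

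**Figure D4:**
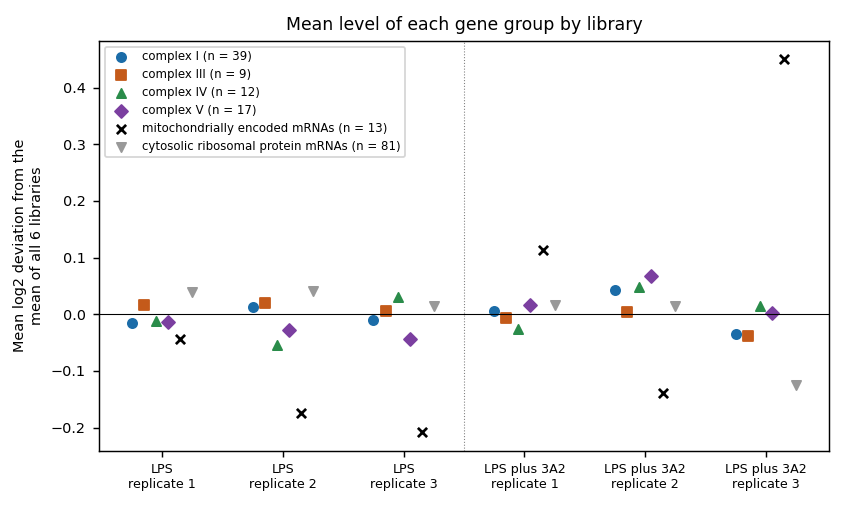
Mean log2 deviation of each gene group from the mean of all 6 libraries, by library, for the 4 complexes and for mitochondrially encoded and cytosolic ribosomal protein mRNAs, with each point the mean over the genes counted in the legend. The complexes run from -0.0536 (complex IV, LPS replicate 2) to 0.0677 (complex V, LPS plus 3A2 replicate 2), while mitochondrial mRNAs reach 0.45 in LPS plus 3A2 replicate 3. Complex IV means weigh its 12 genes alike, among them Cox7a1 with 6 to 20 counts in a library.

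Among the partners of these subunits, 0 genes passed over all genes by edgeR in any of 10 lists. The 13 mitochondrially encoded subunits all lay above 0, with a median log2 fold change of 0.27, beside the deviations by library given above. The 4 genes of complex II, succinate dehydrogenase, which has no mitochondrially encoded subunit, also lay above 0, with a median of 0.07 and Sdhd, the most abundant in CPM, at 1.05-fold (95% interval 0.948 to 1.16). Cycs, the somatic cytochrome c, stood at 1.07-fold (0.947 to 1.2), and 9 of the 14 genes for cytochrome c and coenzyme Q synthesis lay above 0. Coq10b, a coenzyme Q-binding protein, averaged 9.41 ± 0.6 CPM in LPS and 13.3 ± 1.78 CPM in LPS plus 3A2 (SD, n = 3), a 1.41-fold difference (1.11 to 1.78), at an adjusted p of 0.719 by edgeR.

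Assembly factors lay to both sides of 0. Those of complex I had 8 of 18 above 0 with a median of -0.02, and Ndufaf1, which acts early in assembly, stood at 1.25-fold (95% interval 1.02 to 1.53). Those of complex III had 1 of 6 above 0, Ttc19 at 1.2-fold (0.971 to 1.48). Those of complex IV had 13 of 20 above 0 with a median of 0.03, and Coa5 stood at 1.15-fold (1.03 to 1.3). Those of the ATP synthase, with its inhibitor, had 5 of 7 above 0, and Atpif1, the inhibitor that blocks ATP hydrolysis, was the most abundant in CPM at 0.931-fold (0.835 to 1.04). The adjusted p of the assembly genes named ran from 0.721 to 0.819 by edgeR.

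Regulators that control these genes were close to even, with 7 of 13 above 0 and a median of 0.03 on the log2 scale. Ppargc1b, a coactivator of mitochondrial genes, had the smallest p of these at 0.799-fold (95% interval 0.671 to 0.952) and an adjusted p of 0.719 by edgeR. Yy1, the most abundant in CPM, stood at 1.06-fold (0.958 to 1.17). Carriers that exchange ADP, ATP and phosphate with the cytosol had 7 of 8 above 0 with a median of 0.09, and Slc25a3, the phosphate carrier, stood at 1.12-fold (1.02 to 1.23). Ucp2, the most abundant of that list in CPM, stood at 0.956-fold (0.865 to 1.06). Cristae and supercomplex factors had 5 of 12 above 0, with Micos10 at 1.14-fold (1.01 to 1.29) and Phb2 at 0.915-fold (0.826 to 1.01).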

How the data were processed

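RNA from 6 cultures was measured by strand-specific paired-end sequencing after ribosomal RNA depletion, per the labels' protocols. The authors deposited raw read counts per gene symbol, 1 column per library. HISAT2, edgeR and GRCh38, a human build, are named without a role, per the submitters' processing notes, while the symbols are those of mouse. Which program counted the reads, on which annotation and with which strand setting, is not given in the sources used here. In 3 unnamed columns, cells typed beside a few genes were not used.

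Counts were filtered with filterByExpr, scaled by TMM and compared, with robust quasi-likelihood F tests in edgeR 4.0.16 under R 4.3.3, as LPS plus 3A2 against LPS, two-sided, with no covariate, and adjusted by the Benjamini-Hochberg method over all 11498 genes tested at a threshold of 0.05. Intervals are at the 95% level. The biological coefficient of variation was 0.0768. Mean log2 deviations used log2(CPM + 0.5). The test was tried on simulated data. Promoter motifs were counted over the 250 bases before each RefSeq start. Lengths were matched by symbol or RefSeq synonym.

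The members and lists were chosen with earlier results of these data known. Genes described in every library were, per complex, the 3 tested members with the smallest p and the 2 most abundant, and, per related list, the member with the smallest p and the most abundant were eligible. Outside this rule, Ndufa6, Ndufv1, Cox7a1 and the isoform families were picked with their values in view. A gene that the rule named is not reported here, and it stays in the counts and medians. Alternatives were DESeq2 size factors, library totals that omit mitochondrial genes and the 20 genes with most counts, testing every gene with a count, requiring 1 CPM in each library, limma-voom (limma 3.58.1), DESeq2 1.42.0, the replicate number as a block and leaving out each library.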

Additional observations from a re-analysis of the deposited data

How the results depend on the processing

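No member was called under any of the 13 alternatives, and the members' smallest adjusted p by edgeR was 0.12, without LPS plus 3A2 replicate 2. The members' median log2 fold change ran from -0.0121 to 0.0412 with 1 library left out, negative only without LPS plus 3A2 replicate 2, and the number above 0 from 36 to 50. Of the 19 genes that the rule on p and level picked, Atp5b alone changed sign, with log2 fold changes from -0.00121 (without that library) to 0.0384 with 1 library left out. Over all genes, edgeR called 16 without a filter on low counts, 1 with the replicate block and 0 to 24 with 1 library left out, against 0 with all libraries. The replicate numbers were not taken to pair the libraries: deviations of same-numbered libraries correlated at -0.0102, 0.0252 and -0.163 across genes. Only LPS replicate 2 correlated best with its own number. LPS replicate 1 correlated at 0.168 with LPS plus 3A2 replicate 3, and LPS replicate 3 at 0.14 with LPS plus 3A2 replicate 2. Genes under about 2 CPM, such as Cox7a1, are limited by depth.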

Other observations

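The spread between replicates of the subunit genes differed between the groups in the same direction as that of all genes. The median coefficient of variation of CPM was 5.3% with LPS and 7.23% with 3A2 over 77 members, and 7.34% and 10.1% over all genes tested. Counting alone gives a median of 5.13% for the members and 7.23% for all genes at their mean counts. The coefficient was larger with 3A2 for 48 of the 77 members (62.3%), against 64.7% of all genes.

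LPS plus 3A2 replicate 2 held the highest CPM of the 6 libraries for 22 of 77 members (28.6%), where it held the highest for 17.5% of all genes. LPS plus 3A2 replicate 3 held the highest for 19 members (24.7%) and the lowest for 24 (31.2%), against 27.5% and 27.5% of all genes. Members share these libraries, so the counts describe the libraries and were not tested.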
